A study of Homo sapiens with 4 samples.

Results

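IL6 family signaling and the inflammatory cytokines beside it were examined in GIST-T1 cells after ectopic miR-34a expression. The group consisted of 10 genes, of 36337 gene names on the array, chosen by name, with earlier results of these data known: the ligands IL6 and LIF, the receptor chains IL6R, LIFR and OSMR, the shared chain IL6ST, the transcription factor STAT3, its feedback inhibitor SOCS3, and the chemokines IL8 (current symbol CXCL8) and CXCL1. Every non-control probe carrying exactly one of these names was taken, which gave 23 of the 50599 probes. GIST-T1 is an established human cell line from a gastrointestinal stromal tumor (GIST), a mesenchymal tumor of the gut that is usually driven by mutant KIT. Cells (3000000 per transfection) were nucleofected with 100 pmol of a mirVana miR-34a mimic or of the mirVana mimic Negative Control #1, and total RNA was taken after 48 h. Each condition had 2 one-color Agilent arrays, hybridized on 1 slide that was scanned 1 time. The 2 conditions thus share the cell line, the transfection procedure and the dose of small RNA, all cells come from 1 line, and untransfected cells were not part of the comparison. The labels do not say whether the replicates came from separate cultures, so the p-values measure only the spread between these samples, which may be technical.

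IL6, LIF and oncostatin M are secreted ligands whose receptor complexes contain the signal-transducing chain gp130, encoded by IL6ST, together with chains such as IL6R, LIFR or OSMR. The complex activates JAK kinases, which phosphorylate STAT3, and STAT3 in turn induces SOCS3, which shuts the receptor complex down. IL8 and CXCL1 attract neutrophils and are classical outputs of NF-kB, which also drives IL6. miR-34a is a p53-induced tumor suppressor miRNA, and IL6R has been described as one of its targets in other tumor cells.

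The mature sequence of the transfected miRNA and the seed matches in the probes are given first, because bases 2 to 8 of the miRNA, in capitals, decide most of its target choice. The miRNA sequence is that of RefSeq (GRCh38.p14, chr1:9151735-9151756, minus strand). In the probe window, read in the sense of the mRNA from probe base 1 to 30, the capitals mark the letters that pair with miRNA bases 2 to 7.
hsa-miR-34a-5p: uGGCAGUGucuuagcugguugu
CXCL1 A_23_P7144: catACTGCCttgtttaatggtagttttaca
The match to bases 2 to 8, CACTGCC, was in 0 of the 23 member probes and in 0.435% of all probes. The match to bases 2 to 7 followed by A, ACTGCCA, was likewise in 0 of the 23 and in 0.393% of all probes. The shorter match ACTGCC was in 1 member probe, the CXCL1 probe printed here, and in 1.3% of all probes. A probe covers only 60 bases or fewer of a transcript, so these counts describe the probes and not the whole mRNAs.

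STAT and NF-kB motifs were looked for in the promoters of the group because both factor families act in this pathway, and the windows of the 4 genes with a match are printed next. Promoters of 9 of the 10 genes (12 promoters) were in the RefSeq table (GRCh38.p14), reaching from 250 bases before to 50 bases after the start of the gene, and LIF was not matched. The STAT motif TTCNNNGAA and the NF-kB motif GGNNTTTCC were searched on both strands, and no member promoter held both. Each window has 30 bases and runs 5′ to 3′ on the strand of the gene, with the motif in capitals.
LIFR (chr5:38595551-38595580, minus strand, STAT): ccattactagTTCCTTGAAccacaatccaa
LIFR (chr5:38557630-38557659, minus strand, STAT): gctttggagtTTCATCGAAaggtctttaaa
IL6 (chr7:22727118-22727147, plus strand, NF-kB): atcaaatgtgGGATTTTCCcatgagtctca
IL8/CXCL8 (chr4:73740468-73740497, plus strand, NF-kB): tgcaaatcgtGGAATTTCCtctgacataat
CXCL1 (chr4:73869305-73869334, plus strand, NF-kB): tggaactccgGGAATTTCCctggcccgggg
CXCL1 (chr4:73869330-73869359, plus strand, NF-kB): cgggggctccGGGCTTTCCagccccaacca
The STAT motif was in 2 of the 12 member promoters, both of LIFR, and in 7.66% of all 35116 promoters. The NF-kB motif was in 3 of the 12, those of IL6, CXCL8 and CXCL1, and in 6.26% of all promoters. IL6R, IL6ST, OSMR, STAT3 and SOCS3 had neither motif in this window. A match is a description of the letters in the window and was not tested for binding.

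Probes well above background made up 41.8% to 45.2% of an array. Values are the log2 processed signal minus the 75th percentile of the same array, and differences are miR-34a mimic minus negative control on that scale. All 4 fixed markers of GIST and its likely cell of origin (KIT, ANO1, ETV1 and CD34) were well above background on all 4 arrays. Of the fixed markers of other cells, 3 of 5 leukocyte, 3 of 4 epithelial and 0 of 3 endothelial genes were well above background on all 4 arrays, without PTPRC, the pan-leukocyte marker, or CDH1, the epithelial cadherin.

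GIST-T1 cells transfected with either RNA gave signal for 7 of the 10 genes, namely IL6, LIF, LIFR, OSMR, IL6ST, STAT3 and SOCS3, while IL6R, IL8 and CXCL1 were not well above background with any probe on any array. None of the 7 measured genes differed by more than 1.5-fold between the conditions. Of the 15 tested probes, 9 were lower and 6 higher with the mimic, from -0.31 (OSMR) to 0.43 (IL6). The median difference was -0.02, against -0.01 over all 21451 tested probes.

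By limma with Benjamini-Hochberg adjustment over all tested probes, 0 of the 15 member probes were lower by more than 1.5-fold, where 4.79% of all tested probes were. In the other direction 0 of the 15 were higher by more than 1.5-fold, against 2.11% of all tested probes. All 15 were well above background on all 4 arrays. Of the 20065 probes of that kind, 512 were lower and 285 higher by more than 1.5-fold. At an adjusted p under 0.05, 0 member probes were called, and so were 0% of all tested probes, whose lowest adjusted p was 0.095. At an unadjusted p under 0.05 there were 2 of 15 member probes, one of IL6ST and one of OSMR, against 24.3% of all tested probes. With a variance trend in eBayes, 0 member probes were called, against 7.41% of all tested probes, and the lowest adjusted p of a member was 0.0605. The study's methods name a t-test for continuous variables, without naming the arrays. Applied to the arrays here, a t-test gave 2 member probes at an unadjusted p under 0.05 (19.6% of all tested probes). After adjustment it gave 0 (0.00466% of all tested probes). The arrays of the 2 conditions did not overlap for 7 of the 15 member probes (4 lower, 3 higher with the mimic), against 60.5% of all tested probes. A 95% interval lying wholly inside a 1.5-fold difference was found for 12 of the 15 probes, and the other 3 (one each of IL6, IL6ST and OSMR) reached past it. For a single probe, an exact two-sided permutation test of 2 arrays against 2 cannot give a p below 0.33, so the number of arrays limits the precision.

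**Figure D1:**
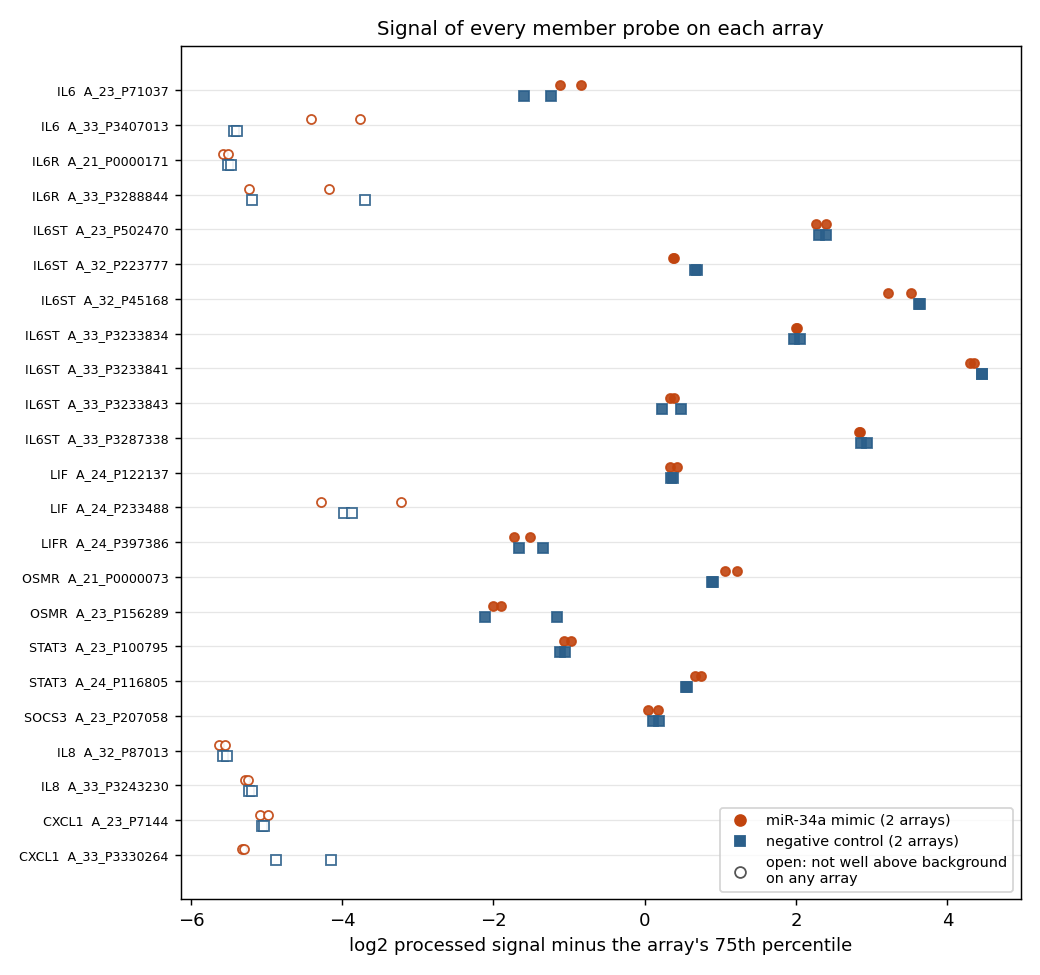
Scaled log2 signal (log2 processed signal minus the 75th percentile of the array) of all 23 probes of the 10 genes, 1 row per probe, with circles for the 2 miR-34a mimic arrays and squares for the 2 negative control arrays. Filled symbols are the 15 tested probes, and open symbols the 8 probes that were not well above background on any array, among them every probe of IL6R, IL8 and CXCL1.

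Among the ligands, IL6, the cytokine that gives the family its name, had 1 measured probe (A_23_P71037, hg19 chr7:22771207-22771266, plus strand). With the mimic its scaled log2 signal was -1.12 and -0.85, and with the control -1.60 and -1.24. Both mimic arrays lay above both control arrays, but by less than the distance between the control arrays. The difference was 0.43 (SE 0.175, 95% interval -0.08 to 0.94), with an adjusted p of 0.248 by limma. This interval includes both no difference and a difference past 1.5-fold. Over the 13 alternatives in processing, some of which leave a difference unchanged by construction, the IL6 difference stayed positive, ranging from 0.23 to 0.61. It stood at 0.23 with normexp background correction, 0.26 without the first negative control array and 0.61 without the second. The other IL6 probe (A_33_P3407013, chr7:22769363-22769422) did not rise well above background, with processed signals of 10.68 and 6.85 on the mimic arrays and 3.39 and 3.38 on the control arrays, and no fold is given for it.

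LIF, leukemia inhibitory factor, was measured by A_24_P122137 (chr22:30636713-30636772, minus strand). The scaled log2 signals were 0.34 and 0.43 with the mimic and 0.38 and 0.34 with the control. The 2 conditions overlapped, and the difference of 0.02 (SE 0.0626, 95% interval -0.16 to 0.21) had an adjusted p of 0.835 by limma. The other LIF probe, A_24_P233488 (chr22:30639661-30639720), was not well above background, with processed signals between 7.51 and 15.6.

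Of the ligand-binding receptor chains, IL6R, which binds IL6 itself, had 2 probes and neither was well above background. The signals of IL6R probe A_21_P0000171 (chr1:154407568-154407627) lay between 3.04 and 3.21 over the 4 arrays, and those of A_33_P3288844 (chr1:154440037-154440096) were 3.85 and 8.10 with the mimic and 4.004 and 10.96 with the control. A difference in IL6R was therefore not detectable on these arrays. LIFR, which pairs with IL6ST to receive LIF, was measured by A_24_P397386 (chr5:38475942-38476001, minus strand) at -1.52 and -1.74 with the mimic and -1.67 and -1.35 with the control. The lowest value came from a mimic array and the highest from a control array, with the others between them. The LIFR difference was -0.12 (SE 0.152, 95% interval -0.57 to 0.32, adjusted p 0.637 by limma), and it was 0.04 without the second negative control array.

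OSMR, the receptor chain for oncostatin M, had 2 measured probes, annotated to different RefSeq transcripts, and they differed in sign. For A_21_P0000073 (NM_001168355, chr5:38886589-38886648, plus strand) the scaled log2 signals were 1.06 and 1.22 with the mimic and 0.91 and 0.88 with the control. Both mimic arrays lay above both control arrays, by a difference of 0.24 (SE 0.0781, 95% interval 0.02 to 0.47), with an unadjusted p of 0.0414 and an adjusted p of 0.19 by limma.

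For the OSMR probe A_23_P156289 (NM_003999, chr5:38933387-38933446) the values were -1.90 and -2.002 with the mimic and -2.12 and -1.16 with the control. Here the mimic arrays lay between the control arrays, which stood far apart. The difference was -0.31 (SE 0.362, 95% interval -1.36 to 0.74, adjusted p 0.618 by limma). Leaving out 1 array turned or enlarged it: without the second negative control array it was 0.17, and without the first it was -0.79. Whether the 2 OSMR transcripts responded unlike each other was not tested.

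**Figure D2:**
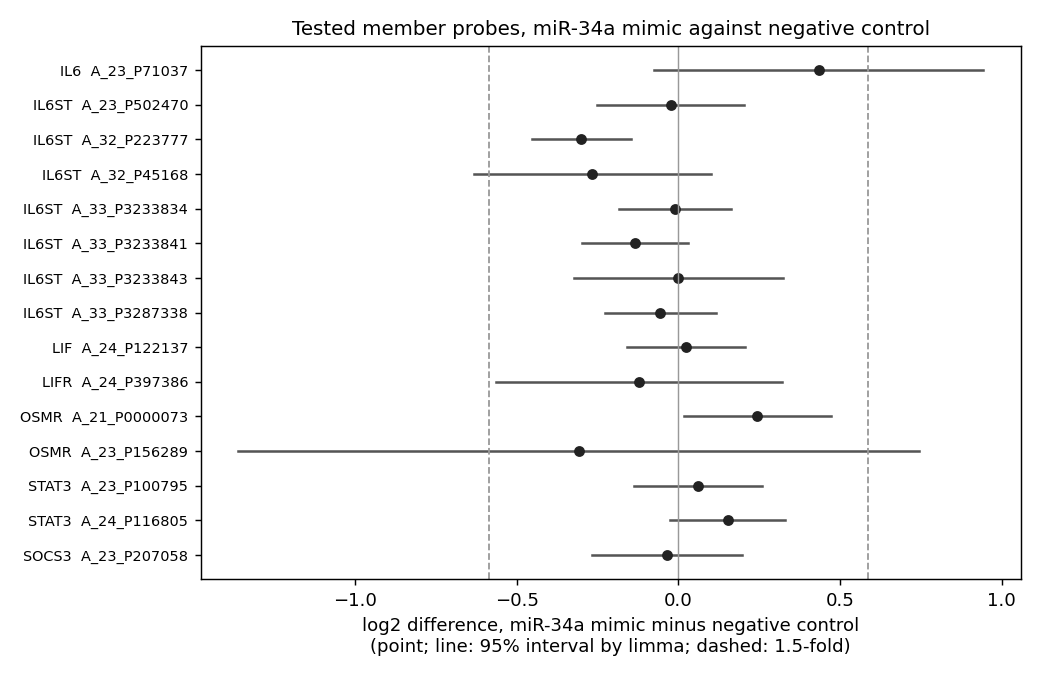
Difference in scaled log2 signal (miR-34a mimic minus negative control) for the 15 tested probes, as points with 95% intervals by limma, and dashed lines at a 1.5-fold difference in either direction. All points lie between -0.31 and 0.43, and the intervals of IL6 A_23_P71037, IL6ST A_32_P45168 and OSMR A_23_P156289 cross a dashed line.

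IL6ST encodes gp130, the chain shared by the receptors of IL6, LIF and oncostatin M, and was covered by 7 probes along the gene (hg19 chromosome 5, minus strand), all of them well above background on all 4 arrays. The 3 probes nearest the 5′ end gave differences of 0.00, -0.01 and -0.06, and the 2 probes 27.0 and 28.8 kb downstream of the first gave -0.13 and -0.02. The 2 probes nearest the 3′ end, 34.4 and 34.6 kb from the first, gave -0.30 and -0.27. The first 3 probes and those downstream of them are annotated to different RefSeq transcripts, so position and annotated transcript cannot be told apart. Of the 7 probes, 4 had both mimic arrays below both control arrays, and none was called. Over all tested probes, the conditions did not overlap, in either direction, for 60.5%.

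The IL6ST probe with the lowest adjusted p of all members was A_32_P223777 (chr5:55231134-55231193). Its scaled log2 signal was 0.38 and 0.37 on the mimic arrays and 0.66 and 0.69 on the control arrays. The replicates lay close together and the conditions did not overlap, with a difference of -0.30 (SE 0.0527, 95% interval -0.45 to -0.15) and a p of 0.00642, which became 0.109 after adjustment by limma. Its neighbor A_32_P45168 is placed at chr5:55230909-55230923, a shorter stretch than for the other IL6ST probes. It gave 3.21 and 3.52 with the mimic and 3.64 and 3.63 with the control. The mimic values were again the lower ones, but the mimic replicates differed from each other by more than the nearer of them did from the controls, and the difference of -0.27 (SE 0.126, 95% interval -0.63 to 0.10) had an adjusted p of 0.292 by limma. In each of the 13 alternatives, some of which leave a difference unchanged by construction, both values stayed negative. They ran from -0.32 to -0.21 for A_32_P223777. For A_32_P45168 they ran from -0.42 (without the second mimic array) to -0.11 (without the first). Neither was called in an alternative that kept all 4 arrays.

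The other 5 IL6ST probes lay further upstream. The values of A_33_P3233841 (chr5:55238513-55238572) were 4.29 and 4.35 with the mimic and 4.46 and 4.46 with the control, a non-overlapping difference of -0.13 (SE 0.0561, adjusted p 0.255 by limma). A_33_P3287338 (chr5:55256263-55256322) gave 2.84 and 2.85 against 2.94 and 2.86, which also did not overlap. For A_23_P502470, A_33_P3233834 and A_33_P3233843 the conditions overlapped, with adjusted p-values of 0.868, 0.917 and 1.0. Probes of different positions bind different stretches of the transcripts, and a test of the difference between the 3′ and 5′ probes was not made, so the pattern along the gene is given as a description.

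**Figure D3:**
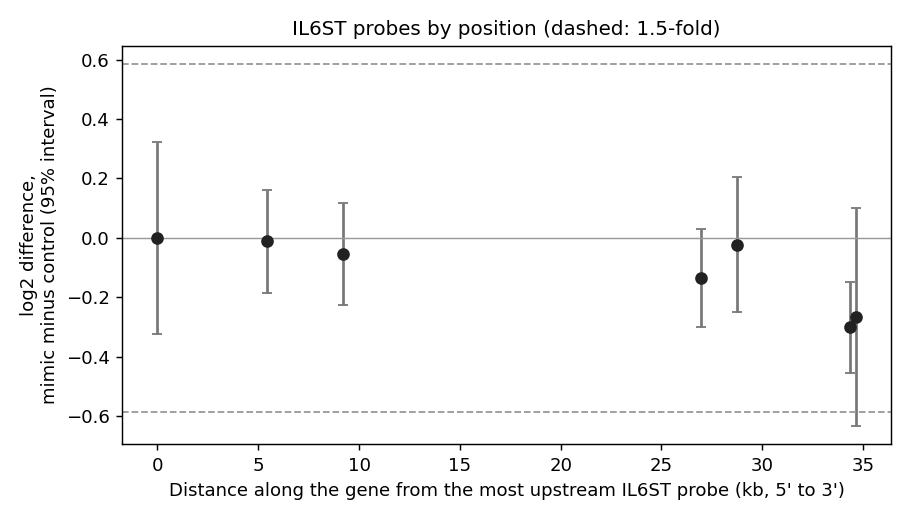
Difference in scaled log2 signal (miR-34a mimic minus negative control, with 95% intervals by limma) of the 7 IL6ST probes against their distance in kb from the most upstream probe. The points of the first 9.23 kb lie between -0.06 and 0.00 and the pair near 35 kb at -0.30 and -0.27, with only the interval of A_32_P223777 below 0 throughout.

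STAT3, the transcription factor that carries the signal to the nucleus, was measured by 2 probes. The scaled log2 signals of A_24_P116805 (chr17:40474404-40474463, minus strand) were 0.66 and 0.75 with the mimic and 0.55 and 0.55 with the control. The mimic arrays lay above the control arrays, and the difference of 0.15 (SE 0.0614, 95% interval -0.03 to 0.33) had an adjusted p of 0.247 by limma. The second STAT3 probe, A_23_P100795 (chr17:40465923-40465982), was spotted 10 times on each array and gave -1.07 and -0.98 with the mimic and -1.13 and -1.05 with the control. Its conditions overlapped, with a difference of 0.06 (SE 0.0685, 95% interval -0.14 to 0.26, adjusted p 0.605 by limma). Both STAT3 probes were thus slightly higher on average with the mimic and neither passed the test. The arrays measure STAT3 mRNA and say nothing of the phosphorylated protein.

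SOCS3, the inhibitor that STAT3 induces and a common readout of active gp130 signaling, was measured by A_23_P207058 (chr17:76353127-76353186, minus strand). Its values were 0.18 and 0.04 with the mimic and 0.18 and 0.10 with the control. The arrays of both conditions interleaved, and the difference of -0.04 (SE 0.0798, 95% interval -0.27 to 0.20) had an adjusted p of 0.799 by limma. The whole interval lies inside a 1.5-fold difference.

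The neutrophil chemokines IL8 and CXCL1 had 2 probes each, and none was well above background. The processed signals of IL8 were 2.94 to 3.11 for A_32_P87013 (chr4:74609265-74609324) and 3.72 to 3.91 for A_33_P3243230 (chr4:74607982-74608041). CXCL1 had signals of 4.26 to 4.64 for A_23_P7144 (chr4:74736850-74736909), and for A_33_P3330264 (chr4:74735646-74735705) of 3.62 and 3.70 with the mimic and 8.32 and 4.85 with the control. For all 8 untested member probes together, the signals ran from 2.94 to 15.6. No fold is given for these genes, and a change in them could not be detected.

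The rest of the pathway was described through 8 lists with 103 other genes, each taken with its brightest tested probe. Of these, 71 genes were tested, 36 lower and 35 higher with the mimic, with a median difference of 0.00. By limma 0 of the 71 were called at an adjusted p under 0.05, while 28 had an unadjusted p under 0.05 (24.3% of all tested probes did). Shares over all tested probes include dimmer probes, not only the brightest of each gene, so the sets compared are not alike. With the variance trend, 10 of the 71 were called (7.41% of all tested probes). The called ones were CLCF1, SOCS2 and NFKBIE on the lower side and CTF1, STAT2, BCL6, IKBKG, NFKBIA, CXCL12 and CXCR4 on the higher side, of which SOCS2, IKBKG and NFKBIA are named only because their values had been seen. More than 1.5-fold lower were 4 genes, JUNB, CISH, IL24 and TNFRSF1B, and more than 1.5-fold higher were 2 genes, BCL6 and CXCR4, against the 4.79% and 2.11% of all tested probes. With only probes detected on all 4 arrays, 3 of the listed genes were that far lower and 2 higher, against 512 and 285 of 20065 probes. The conditions did not overlap for 50 of the 71, and for 60.5% of all tested probes. Another 32 genes were not tested, and 28 of them were not well above background on any array.

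Of the 9 other IL6 family ligands, 3 were tested. CTF1, cardiotrophin 1, was 0.47 higher (SE 0.0635, adjusted p 0.0954 by limma and 0.0188 with the variance trend), with 2.12 and 2.03 on the mimic arrays and 1.62 and 1.58 on the control arrays. CLCF1, which signals through the ciliary neurotrophic factor receptor, was 0.33 lower (difference -0.33, adjusted p 0.121 by limma and 0.0374 with the trend). These 2 ligands, which both act through gp130 and LIFR, thus lay on opposite sides. Not tested were IL11, CNTF, OSM, IL27, EBI3 and IL31, each undetected on all 4 arrays, so that the ligand of OSMR was among those without signal.

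Of the 6 other receptor chains and shedding proteases, 5 were tested, 2 lower and 3 higher. The IL11 receptor chain IL11RA differed by 0.30 (adjusted p 0.14) and the IL27 receptor chain IL27RA by -0.31 (adjusted p 0.144), both by limma and both without overlap of the arrays. Among 8 tested JAK kinases and other STATs, 3 were lower and 5 higher, with a median of 0.10. JAK2, a kinase bound to gp130, had values of -1.60 and -1.397 with the mimic and -1.73 and -2.04 with the control (difference 0.38, adjusted p 0.237 by limma). The JAK2 difference was 0.23 without the second negative control array and 0.16 with normexp background correction. STAT2, a factor of the interferon response, differed by 0.24 (adjusted p 0.133 by limma and 0.0361 with the trend).

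The 13 tested genes of the feedback list split into 6 lower and 7 higher. CISH, a SOCS family inhibitor usually induced by STAT5, was the one past 1.5-fold. Its values were -1.10 and -0.99 with the mimic and -0.56 and -0.10 with the control, which do not overlap. The CISH difference was -0.71, a 1.64-fold lower signal (SE 0.185, adjusted p 0.152 by limma and 0.0742 with the trend).

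The 14 tested STAT3 target genes had 9 lower and 5 higher, with a median of -0.08, and 2 lay past 1.5-fold, on opposite sides. BCL6, a transcriptional repressor, had 1.39 and 1.41 with the mimic and 0.79 and 0.81 with the control, a difference of 0.60 or 1.52-fold (SE 0.0524, adjusted p 0.095 by limma and 0.013 with the trend). JUNB, an AP-1 subunit, had -1.53 and -1.41 with the mimic and -0.78 and -0.91 with the control, a difference of -0.63 or 1.54-fold (SE 0.0829, adjusted p 0.0954 by limma and 0.0522 with the trend). Both differences were several times the distance between replicates, and neither passed limma's adjusted threshold.

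All 14 genes of NF-kB subunits and inhibitors were tested, 8 lower and 6 higher, with a median of -0.01 and none past 1.5-fold. The largest differences were those of 2 genes of the IkB family, NFKBIZ at -0.45 (adjusted p 0.201) and NFKBIE at -0.36 (adjusted p 0.101), both by limma. Without the second negative control array NFKBIZ was at -0.26, and with normexp background correction at -0.23. NFKBIE was among the genes called with the trend, at an adjusted p of 0.0195.

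Of 22 other cytokines and chemokines, 16 were not tested, among them IL1A, IL1B, TNF, CXCL2 and CXCL3. CXCL12, which recruits cells through CXCR4, had 3.27 and 3.26 with the mimic and 2.75 and 2.73 with the control. This difference of 0.53 (SE 0.0523, adjusted p 0.095 by limma and 0.0102 with the trend) was larger than those of the other CXCL12 probes, at 0.18 and 0.26. IL24, a member of the IL10 family, was well above background on 3 arrays, its conditions overlapped, and its difference of -0.71 had an adjusted p of 0.396 by limma. Its values were -2.72 and -3.54 with the mimic and -2.86 and -1.97 with the control. Each array weighed on IL24: the difference was -1.13 without mimic 1, -0.30 without mimic 2, -1.16 without control 1 and -0.27 without control 2.

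Of the 8 tested receptors of other cytokines and chemokines, 4 were lower and 4 higher. CXCR4, the receptor of CXCL12, showed the largest difference of the 71 genes. Its values were 2.17 and 2.20 with the mimic and 1.4005 and 1.35 with the control, a 1.75-fold higher signal (difference 0.81, SE 0.0556, adjusted p 0.095 by limma and 0.00832 with the trend). The receptor CXCR4 and its ligand CXCL12 were both higher on both mimic arrays. TNFRSF1B, the second TNF receptor, had -1.67 and -2.01 with the mimic and -1.25 and -1.25 with the control (difference -0.59, adjusted p 0.137 by limma), and its other probe differed by -0.31. The IL8 and CXCL1 receptors CXCR1 and CXCR2 were not well above background on any array.

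**Figure D4:**
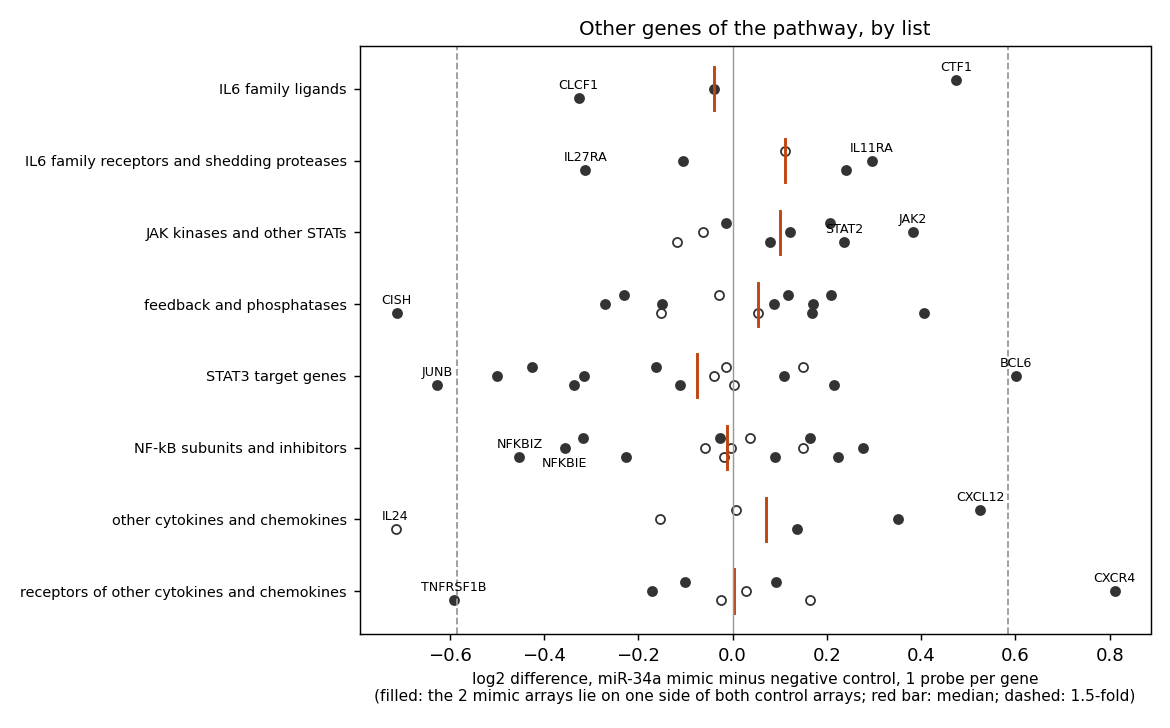
Difference in scaled log2 signal (miR-34a mimic minus negative control) of the 71 tested genes of the 8 other pathway lists, 1 point per gene, filled where the arrays of the conditions do not overlap, with a red bar at the median of each list and dashed lines at 1.5-fold. The list medians lie between -0.08 and 0.11, and CXCR4 at 0.81 and BCL6 at 0.60 are the points above the upper dashed line.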

How the data were processed

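Spot intensities deposited by the authors came from Agilent Feature Extraction 10.7.3.1 (processed signal after background subtraction, mean and local background intensity, and flags). They also deposited the processed intensities of the 4 arrays side by side, within 0.496% of the scanner output, where 0 columns belong to no sample. The deposited intensities were not scaled between arrays. Control spots and outlier-flagged spots (293 to 424 of 58717 per array) were dropped, 0 spots were saturated, and the remaining spots of each probe were averaged. From each log2 processed signal the array's 75th percentile was subtracted. Probes that both arrays of 1 condition or the other showed well above background (21451) were tested with limma 3.58.1 in R 4.3.3 (data.table package, version 1.17.8), with Benjamini-Hochberg adjustment. The 1.5-fold threshold is the study's, and its methods name no array test. Gene names and positions (hg19) come from the array's annotation, and 21 of 23 member probes matched RefSeq by accession. Exon annotation of that build was not used here. Between replicates, log2 differences had an SD of 0.337 (mimic) and 0.29 (control).

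Members and lists were chosen with earlier results of these data known. Named were every member probe and, on each other list, genes past 1.5-fold without overlap of the arrays, or otherwise the 2 genes with the largest differences. Alternatives were normexp correction (offset 50), quantile normalization, the percentile over detected probes, no filter, and only probes detected on all 4 arrays. Further ones were the deposited side-by-side values, the replicate block, a variance trend, a t-test, and leaving out each array. The test was also run on simulated data in which every planted difference was larger than 1.5-fold. That run does not speak to differences as small as those of the member probes.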

Additional observations from a re-analysis of the deposited data

How the results depend on the processing

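No member probe was called under any alternative that kept all 4 arrays. Over all tested probes these alternatives called 877 with normexp, 1590 with the variance trend, 1 with the t-test and 0 otherwise. Where 0 of all probes were called, the lack of a member call says nothing particular about the members. Over all 13 alternatives, 180 of 195 member values kept their direction, with the 15 reversals spread over 7 of 15 probes. The filter settings, the replicate block, the variance trend and the t-test leave a tested probe's difference unchanged, so its direction could not turn there. Without a filter on dim probes, 1 member probe was lower and 1 higher by more than 1.5-fold. Leaving out single arrays gave 0 to 1 lower (1 without negative control 1, OSMR A_23_P156289) and 0 to 1 higher (1 without negative control 2, IL6). The 4 other pathway genes lower by more than 1.5-fold became 0 with normexp, 2 with quantile normalization, 12 without a filter, and 2 to 4 when single arrays were left out (2 without negative control 2). The 2 higher became 1 with normexp, 5 without a filter, and 2 to 3 with single arrays left out. Calls among them went from 0 to 6 with normexp and 10 with the variance trend, and over all probes from 0 to 877 and 1590. For IL6ST A_33_P3233843, at 0.00, the sign turned with normexp (-0.0045), quantile normalization (-0.0036), the percentile over detected probes (-0.0079) and the deposited side-by-side values (-0.0064), and it ranged from -0.13 to 0.13 with single arrays left out. IL6ST A_33_P3233834 was 0.0036 with normexp and -0.051 to 0.028 with single arrays left out. The corresponding ranges were -0.089 to 0.042 for IL6ST A_23_P502470, -0.021 to 0.068 for LIF, -0.28 to 0.036 for LIFR, -0.79 to 0.17 for OSMR A_23_P156289 and -0.11 to 0.035 for SOCS3. The cause of these changes was not tested. Without a filter 50546 probes were compared, dim ones among them, against 21451 with it. Same-numbered replicates did not deviate together (correlation -0.03). The replicate block leaves each difference unchanged, and so again gave 4 other genes lower and 2 higher. It called 0 member probes and 0 of all tested probes. With normexp CISH was at -0.42, JUNB at -0.34, TNFRSF1B at -0.29 and IL24 at -0.28. Genes not well above background, such as IL6R, IL8 and CXCL1, could not be compared.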
